A study of Mus musculus with 12 samples.

Results

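Heat shock chaperones of the cytosol and the mitochondrion were followed through an array study of mouse lung. The set was given as 10 named genes: Hspa1a, Hspa1b, Hspa8, Dnajb1, Hsph1, Hspb1, Hsp90aa1, Hspd1, Hspe1 and Hsf1. A probe set counted for a gene where the platform annotation gave that gene as its sole symbol. In this way 9 of the 10 genes were found, with 22 of the 45037 probe sets on the array, and all 9 entered the test over 12309 genes. The probe set with the highest mean signal led for each gene and the others served as a check. Of the 22 probe sets, 20 passed the filter on dim signal. The 2 that failed it were both of Hsp90aa1, with means of 2.77 and 1.56 on the log2 scale. Hsf1, the transcription factor that switches these genes on, had no such probe set and was not analysed here.

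The 12 arrays came from lungs of male C57BL/6 mice aged 8 to 12 weeks, 1 array per sample and 3 per group. Wild-type mice and nmMLCK-/- mice, which carry no functional non-muscle form of the myosin kinase MLCK (encoded by Mylk) and are called knockout below, either breathed spontaneously (SB) or were ventilated for 4 h to cause ventilator-induced lung injury (VILI). The sample labels give a tidal volume of 40 ml/kg at 65 breaths per min with an end-expiratory pressure of 0 cm H2O, whereas the series text gives 30 ml/kg. No group ventilated at a low tidal volume was among the samples, so tidal volume and the procedure of ventilation itself cannot be told apart. How the knockout allele was made, and the clock time at which lungs were taken, were not given in the sources used here.

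Chaperones bind unfolded or newly made proteins and help them to fold, to be refolded or to be passed on for degradation. When unfolded proteins build up, heat shock factor HSF1 is released from chaperones that hold it inactive, binds heat shock elements in promoters as a trimer, and raises transcription of a shared set of chaperone genes. In the cytosol HSP70 proteins work in cycles with J-domain co-chaperones and with HSP110 nucleotide exchange factors, small heat shock proteins hold unfolded proteins in solution, and HSP90 acts later on kinases and receptors. The mitochondrial matrix has a folding chamber of HSP60 with its lid HSP10. In lung these genes are known to answer to heat, oxidants and mechanical strain.

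All values are log2 signals as deposited, and a difference of 1 is a 2-fold change. The surfactant and alveolar genes that served as lung epithelium markers were bright on every array: the mean log2 signal over the 8 tested of 9 lay between 14.57 and 14.75. Mylk, which also encodes the smooth muscle form of the kinase, was read by 3 probe sets, and their knockout minus wild-type differences under SB were -0.97, -0.70 and -0.22. None passed the test, and where these probe sets lie relative to the missing isoform was not analysed here. In the lead Mylk probe set, the signal was 12.98 to 13.05 in wild-type SB and 12.71 to 12.83 in knockout SB. Replicate 3 of wild-type SB and replicate 2 of knockout SB stood apart from the other 4 SB arrays, with a mean of 11.18 each over 12 glucocorticoid response genes against 12.83 to 13.17. Counts and values that moved by over 1.5 times, or calls that ended, without both are given below. In these whole-lung samples, fewer cells of a type and less RNA per cell cannot be told apart. Only the series text says that the samples of a group were separate animals.

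Most of the chaperone genes were lower after ventilation in both genotypes, and the inducible HSP70 pair had the largest differences of the 9. In wild-type lung, 7 of 9 genes fell and 0 rose (limma, Benjamini-Hochberg adjusted p under 0.05), where 9.03% of all genes tested fell and 6.34% rose. All 7 had no overlap between groups, each VILI array lying under each SB array, as did 20.5% of all genes. In knockout lung 5 of 9 fell and 0 rose, against 12.6% and 8.12% of all genes, and 7 of 9 were lower in every VILI array, against 25.8%. Over both genotypes the mean response was a fall in 7 of 9 and a rise in 0, against 22.6% and 14.1% of all genes. In 6 of 9 every one of the 6 VILI arrays lay under every one of the 6 SB arrays, as did 10.4% of all genes. The median log2 difference of the 9 genes was -0.68 in wild type and -0.55 in knockout, and that of all genes was -0.05 in each. Among all wild-type calls 41.2% were higher as deposited and 52.5% once array medians were set equal. In knockout that share moved from 39.1% to 46.3%. With array medians equal, 6 members were called in wild type, 4 in knockout and 7 in the mean response. Without both SB arrays that stood apart, 5 members fell in wild type (not Hspa8 and Hsph1), 6 in knockout (Hsph1 in addition) and 7 in the mean response.

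**Figure D1:**
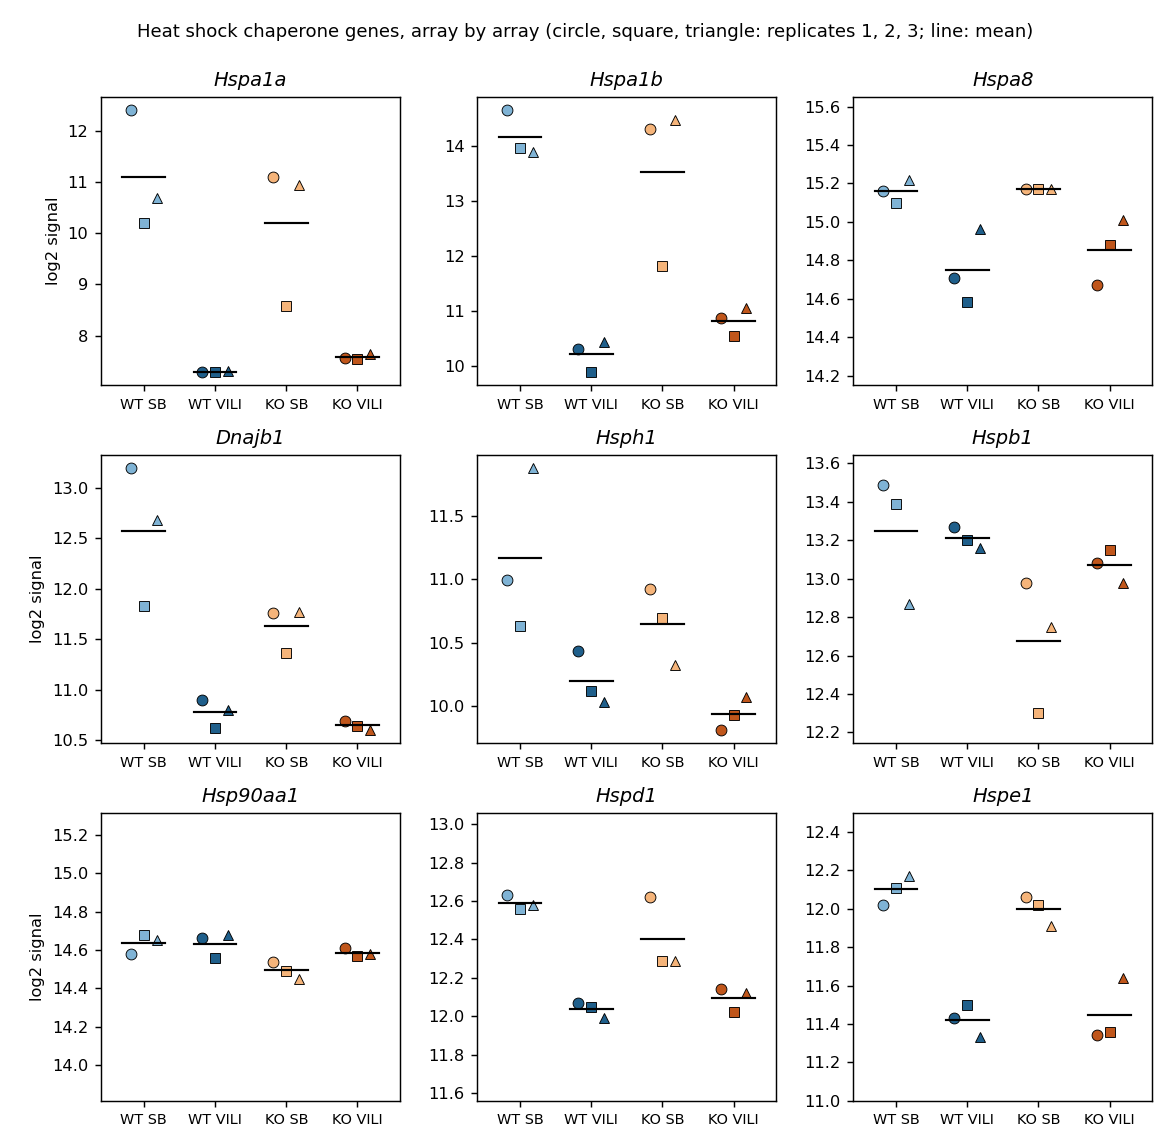
Log2 signal of the lead probe set of each of 9 chaperone genes (y axis, scaled per gene) in wild-type (WT) and knockout (KO) lung under SB and VILI. Each symbol is an array (circle, square and triangle for replicates 1, 2 and 3) and each line a group mean of 3 arrays; Hspa1a lies between 8.57 and 12.40 in the SB arrays and between 7.29 and 7.64 in the VILI arrays.

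Hspa1a and Hspa1b encode the stress-inducible cytosolic HSP70, the chaperone that gives the classical read-out of the heat shock response. Their sequences are nearly the same, so signal may be shared between their probe sets, and they are read here as a pair. In the counts and medians over the members they still enter as separate genes, so any shared signal enters for both. Both windows around the annotated transcription start (RefSeq, GRCm38.p6, 250 bases before to 50 after) are printed 5′ to 3′ on the gene's strand, because this pair had the largest response. Hspa1a lies at chr17:34972107-34972406 and Hspa1b at chr17:34959189-34959488, both on the minus strand. Capitals mark a heat shock element of 2 units, GAANNTTC or TTCNNGAA. Here and below, units were matched exactly apart from the free bases N. Elements with a changed base in a unit were not searched for.
Hspa1a: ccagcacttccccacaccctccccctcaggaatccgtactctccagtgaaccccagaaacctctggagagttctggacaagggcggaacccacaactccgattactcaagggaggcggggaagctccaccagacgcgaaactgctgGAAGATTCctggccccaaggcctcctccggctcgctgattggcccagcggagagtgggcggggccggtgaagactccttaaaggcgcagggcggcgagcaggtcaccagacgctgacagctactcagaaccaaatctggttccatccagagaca
Hspa1b: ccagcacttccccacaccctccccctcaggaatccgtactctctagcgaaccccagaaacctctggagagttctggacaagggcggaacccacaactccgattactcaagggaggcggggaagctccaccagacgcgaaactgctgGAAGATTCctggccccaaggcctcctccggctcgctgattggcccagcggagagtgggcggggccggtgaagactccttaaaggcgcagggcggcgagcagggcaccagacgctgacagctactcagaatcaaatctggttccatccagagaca
The windows were equal at 296 of 300 bases. Each had 1 element, 104 to 97 bases upstream of the start. Neither window had an exact match to an element of 3 units, GAANNTTCNNGAA or TTCNNGAANNTTC. Each of these motifs covers both strands with its partner.

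Hspa1b (probe set 1427127_x_at) had a log2 signal of 14.66, 13.97 and 13.90 in the wild-type SB arrays and 10.31, 9.89 and 10.44 in the wild-type VILI arrays. Its knockout SB arrays gave 14.31, 11.82 and 14.48, and its knockout VILI arrays gave 10.88, 10.55 and 11.05. No VILI array reached any SB array, and the lowest SB value was that of knockout replicate 2. Hspa1b fell by 3.96 ± 0.58 on the log2 scale in wild type (SE, n = 3 per group, limma adjusted p = 0.00225), which is 15.6-fold lower. In knockout the difference was -2.71 ± 0.58 (adjusted p = 0.0109), or 6.53-fold lower. The other probe sets of Hspa1b, 1427126_at and 1452318_a_at, fell by 4.51 and 3.83 in wild type and by 2.99 and 2.44 in knockout, each past the test over all probe sets.

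Hspa1a (1452388_at) read 12.40, 10.20 and 10.68 in wild-type SB, and 7.29, 7.30 and 7.31 in wild-type VILI. In knockout it read 11.10, 8.57 and 10.94 under SB and 7.57, 7.54 and 7.64 under VILI. The SB arrays spanned 3.83 log2 units and the VILI arrays 0.35, and the groups did not overlap. The wild-type difference was -3.80 ± 0.66 (adjusted p = 0.00542, 13.9-fold lower) and the knockout difference -2.62 ± 0.66 (adjusted p = 0.0214, 6.13-fold lower). The knockout call was not stable when single arrays were dropped. It was lost without knockout SB replicate 1 or 3 or any 1 of the 3 knockout VILI arrays, with an adjusted p up to 0.066. The knockout difference stayed between -3.43 and -2.17 as each of the 12 arrays was dropped in turn. Without the SB arrays that stood apart, the knockout difference was -3.43 for Hspa1a and -3.57 for Hspa1b, and the wild-type difference -4 and -4.1.

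Dnajb1 (1416755_at) encodes HSP40, the J-domain partner that delivers substrates to HSP70 and sets off its ATP hydrolysis. Its signal was 13.20, 11.83 and 12.68 in wild-type SB and 10.90, 10.62 and 10.80 in wild-type VILI. Knockout SB arrays read 11.76, 11.36 and 11.77, and knockout VILI arrays 10.69, 10.64 and 10.60. All SB arrays lay above all VILI arrays, and wild-type SB lay above knockout SB in every array. Dnajb1 fell by 1.80 ± 0.27 in wild type (adjusted p = 0.00292, 3.48-fold lower). The knockout difference was -0.99 ± 0.27 (adjusted p = 0.0307). It lost its call without knockout SB replicate 1 or 3 or any 1 of the knockout VILI arrays, at an adjusted p up to 0.0839. The second probe set, 1416756_at, fell by 1.66 and 1.08 and passed in both genotypes. In the Dnajb1 promoter windows no heat shock element of 2 or 3 units was matched exactly.

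Hsph1 encodes HSP110, the nucleotide exchange factor that resets HSP70 for a new cycle. The lead probe set, 1425993_a_at, read 10.99, 10.63 and 11.88 in wild-type SB against 10.43, 10.12 and 10.03 in wild-type VILI. In knockout it read 10.92, 10.69 and 10.32 against 9.81, 9.93 and 10.07. Within each genotype the groups were apart, but wild-type VILI replicate 1 lay above knockout SB replicate 3. Hsph1 fell by 0.97 ± 0.28 in wild type (adjusted p = 0.039). The knockout difference of -0.71 ± 0.28 did not pass (adjusted p = 0.0905), whereas the mean response of -0.84 ± 0.20 did (adjusted p = 0.00787). The wild-type difference shrank to -0.62 without wild-type SB replicate 3, the array with the highest signal, and the call was lost in 8 of 12 fits with a single array dropped. Those 8 lacked wild-type SB replicate 1 or 3, or any 1 of the wild-type or knockout VILI arrays. The other probe set, 1423566_a_at, fell by 1.21 and 0.92 and passed in both genotypes (adjusted p over probe sets 0.0162 and 0.0375).

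Hspa8 encodes HSC70, the constitutive cytosolic HSP70 that serves folding and clathrin uncoating in unstressed cells. Its lead probe set (1455789_x_at) read 15.16, 15.10 and 15.22 in wild-type SB and 14.71, 14.58 and 14.96 in wild-type VILI. The knockout SB arrays all read 15.17, and the knockout VILI arrays read 14.67, 14.88 and 15.01. The gap between groups was narrow, with the highest VILI array at 15.01 and the lowest SB array at 15.10. Hspa8 fell by 0.41 ± 0.11 in wild type (adjusted p = 0.0357). The knockout difference of -0.31 ± 0.11 missed the threshold (adjusted p = 0.0729), and the mean response of -0.36 ± 0.08 passed (adjusted p = 0.00633). The wild-type call was lost in 6 of 12 fits, those that dropped replicate 1 or 3 of wild-type SB, 1 or 2 of wild-type VILI, 3 of knockout SB or 2 of knockout VILI. The largest adjusted p among them was 0.117.

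Of the other Hspa8 probe sets, 1420622_a_at fell by 0.58 in wild type and 0.53 in knockout and 1420623_x_at by 0.55 and 0.46. All 4 of these differences passed over all probe sets. With the median over its probe sets, Hspa8 gained its call in knockout, at -0.50. The fourth probe set, 1431182_at, went its own way. It read 10.64 in wild-type SB replicate 1, 8.50 and 7.87 in knockout SB replicates 1 and 3, and between 6.86 and 7.45 in all other arrays. Its differences of -0.76 ± 0.84 and -0.40 ± 0.84 did not pass. The array that was highest here, wild-type SB replicate 1, was also highest for Hspa1a, Hspa1b and Dnajb1.

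Hspd1 and Hspe1 encode HSP60 and its lid HSP10, which fold imported proteins in the mitochondrial matrix. The genes lie head to head on chromosome 1, and the Hspe1 window and 1 of the 2 Hspd1 windows overlap by 285 bases on opposite strands. The other Hspd1 window, at chr1:55088194-55088493 on the minus strand, had no exact match to an element of 2 or 3 units. The shared stretch is printed for Hspe1 at chr1:55087898-55088197 on the plus strand (RefSeq, GRCm38.p6, 5′ to 3′), with overlapping heat shock elements of 2 and 3 units in capitals, 89 to 72 bases upstream of the Hspe1 start and 144 to 127 bases upstream of the Hspd1 start of the overlapping window.
Hspe1: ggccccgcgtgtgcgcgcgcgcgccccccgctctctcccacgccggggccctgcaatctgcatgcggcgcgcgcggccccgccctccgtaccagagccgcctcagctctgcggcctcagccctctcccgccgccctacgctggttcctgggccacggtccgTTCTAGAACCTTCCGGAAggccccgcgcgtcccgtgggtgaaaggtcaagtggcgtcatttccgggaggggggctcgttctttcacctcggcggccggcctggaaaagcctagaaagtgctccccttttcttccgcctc

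Hspd1 (1426351_at, its only probe set) had a tight SB group in wild type, at 12.63, 12.56 and 12.58, and read 12.07, 12.05 and 11.99 in wild-type VILI. Knockout SB arrays read 12.62, 12.29 and 12.29, and knockout VILI arrays 12.14, 12.02 and 12.12. Every VILI array was under every SB array, and only replicate 1 of knockout SB reached the wild-type level. Hspd1 fell by 0.55 ± 0.10 in wild type (adjusted p = 0.00558). The knockout difference of -0.31 ± 0.10 passed narrowly (adjusted p = 0.0465) and kept its call in 1 of 12 fits with a single array dropped, that without wild-type SB replicate 3. It was -0.20 without knockout SB replicate 1, and the largest adjusted p was 0.146.

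Hspe1 (1450668_s_at) read 12.02, 12.11 and 12.17 in wild-type SB and 11.43, 11.50 and 11.33 in wild-type VILI. It read 12.06, 12.02 and 11.91 in knockout SB and 11.34, 11.36 and 11.64 in knockout VILI. The SB and VILI arrays were clearly apart, and the SB arrays spread by little. Hspe1 fell by 0.68 ± 0.10 in wild type (adjusted p = 0.00236) and by 0.55 ± 0.10 in knockout (adjusted p = 0.00547), and both calls held in all 12 fits that left out an array. Its second probe set, 1422579_at, fell by 0.84 and 0.58 and passed in both genotypes. The mean response of Hspe1, -0.62 ± 0.07, had the smallest adjusted p of the 9 genes, 0.000209.

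Hsp90aa1 encodes the inducible cytosolic HSP90, which matures kinases and steroid receptors. Its signal (1438902_a_at) hardly moved: 14.58, 14.68 and 14.65 in wild-type SB and 14.66, 14.56 and 14.68 in wild-type VILI. Knockout SB arrays read 14.54, 14.49 and 14.45, and knockout VILI arrays 14.61, 14.57 and 14.58. The wild-type groups overlapped, while the knockout VILI arrays all lay just above the knockout SB arrays. The wild-type difference was 0.00 with a 95% interval of -0.16 to 0.15, and the knockout difference 0.09 with an interval of -0.06 to 0.25 (adjusted p = 0.973 and 0.367). Of the other probe sets past the filter, 1437497_a_at differed by -0.14 in wild type and 0.33 in knockout, and 1426645_at by -0.12 and 0.24, with adjusted p of 0.128 or more over all probe sets. In both, knockout SB replicate 2 was the lowest array, at 13.14 and 13.23.

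Hspb1 encodes HSP25, the mouse counterpart of human HSP27, a small heat shock protein that holds unfolded proteins and binds actin. Its window at chr5:135887669-135887968 on the plus strand (RefSeq, GRCm38.p6, 5′ to 3′) is shown because it carries elements while the gene did not pass the test. Capitals mark 2 elements of 2 units, 117 to 110 and 97 to 90 bases upstream of the start.
Hspb1: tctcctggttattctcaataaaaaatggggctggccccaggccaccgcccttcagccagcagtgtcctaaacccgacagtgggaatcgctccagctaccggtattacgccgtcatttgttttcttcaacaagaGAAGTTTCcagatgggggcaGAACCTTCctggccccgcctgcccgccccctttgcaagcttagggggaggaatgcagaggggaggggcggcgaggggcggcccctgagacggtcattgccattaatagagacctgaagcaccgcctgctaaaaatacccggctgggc
The lead probe set, 1422943_a_at, read 13.49, 13.39 and 12.87 in wild-type SB and 13.27, 13.20 and 13.16 in wild-type VILI. It read 12.98, 12.30 and 12.75 in knockout SB and 13.08, 13.15 and 12.98 in knockout VILI. Groups overlapped in wild type and, at 12.98, in knockout, and both SB arrays that stood apart were the lowest of their group. The wild-type difference was -0.04 (95% interval -0.45 to 0.38, adjusted p = 0.905) and the knockout difference 0.39 (interval -0.03 to 0.80, adjusted p = 0.16). The knockout difference was 0.20 without knockout SB replicate 2, and the wild-type difference -0.23 without wild-type SB replicate 3. The second probe set, 1425964_x_at, gave -0.03 and 0.32, also without a call. Without both arrays that stood apart, the mean response was -0.02 in place of 0.17.

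**Figure D2:**
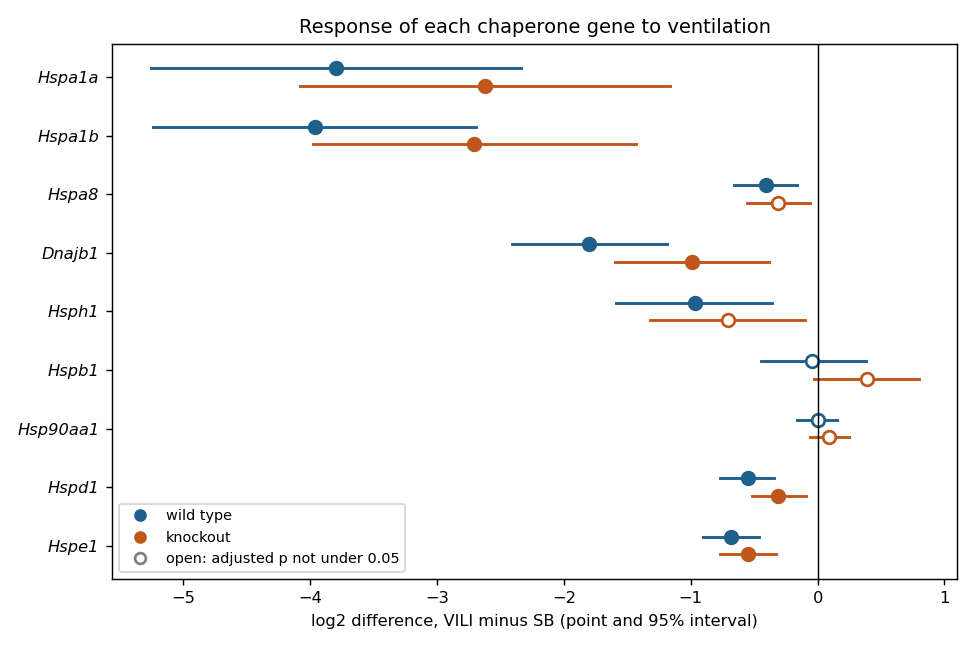
Log2 difference, VILI minus SB (x axis), for 9 chaperone genes in wild type and knockout (n = 3 arrays per group). Points are limma estimates and lines 95% intervals, and open points did not pass an adjusted p of 0.05; Hspa1b lies at -3.96 and -2.71, and Hsp90aa1 at 0.00 and 0.09.

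The members with the largest falls, Hspa1a and Hspa1b, were not those with exact matches to elements of 3 units. Imperfect elements were not searched for, so they may be present in windows without a match. A match describes letters and not binding. Of the 7 members with a window in the table, 6 had an element of 2 units and 3 (Hspe1, Hspd1 and Hsph1) an element of 3 units. Of all genes with a window, 17% had an element of 2 units in any window and 0.662% one of 3. The matches of Hspe1 and Hspd1 are the same letters, counted for both. Over all 32851 windows, 15.1% held 2 units and 0.603% held 3. The Hsph1 element of 3 units, in the window at chr5:149636266-149636565 on the minus strand, lay after the annotated start. Of 72 further chaperone genes with a window, 17 held 2 units and 2 (Chordc1 and Dnajb6) held 3. Promoters of Hspa8, Hsp90aa1 and Hsf1 were not analysed here.

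**Figure D3:**
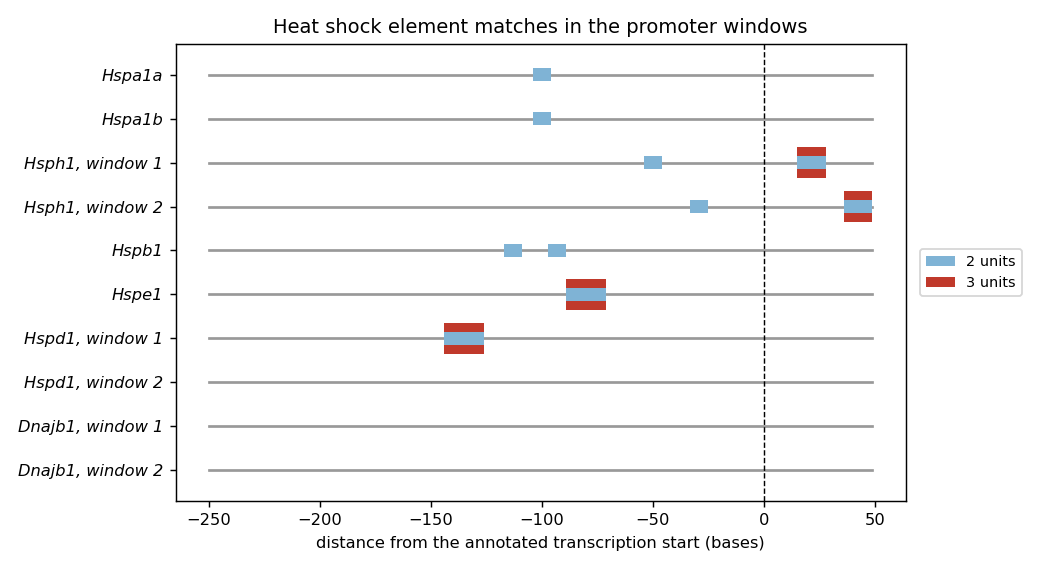
Position of heat shock element matches in the promoter windows of 7 chaperone genes, in bases from the annotated transcription start (x axis; dashed line at the start). Blue bars mark elements of 2 units and red bars elements of 3 units; those of Hspa1a and Hspa1b lie 104 to 97 bases upstream.

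The knockout was compared with wild type next. All 9 genes had a positive difference of responses (knockout minus wild type), as did 48.2% of all genes. The sign of Hsph1, at 0.26, was not stable: it was -0.07 without both arrays that stood apart and -0.09 without wild-type SB replicate 3 alone. None of the 9 passed the test, and neither did any of the 12309 genes (0% called). At an unadjusted p under 0.05 there were 619 genes and 0 members by their lead probe sets. Of the members' other probe sets only 1437497_a_at of Hsp90aa1 was under it, at 0.47 ± 0.20 (limma unadjusted p = 0.0409, adjusted p over probe sets 0.964). The sizes carried wide intervals: 1.26 for Hspa1b (95% interval -0.55 to 3.06), 1.18 for Hspa1a (-0.89 to 3.25), 0.81 for Dnajb1 (-0.05 to 1.67, adjusted p = 0.971) and 0.24 for Hspd1 (-0.06 to 0.55). The first 3 became 0.54, 0.57 and 0.62 without both arrays that stood apart. Knockout SB replicate 2 alone set much of the pair's value: without it Hspa1b was 0.40 and Hspa1a 0.36. Without wild-type SB replicate 1, the Dnajb1 difference was 0.50.

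Under SB no member differed between genotypes by the adjusted test, which called 0.0487% of all genes. The lowest unadjusted p was that of Dnajb1, with knockout minus wild type at -0.94 ± 0.27 (unadjusted p = 0.00613, adjusted p = 0.795), and its second probe set gave -1.16 ± 0.29. The Dnajb1 difference was -0.62 without wild-type SB replicate 1. Among lead probe sets Hspb1 followed with -0.57 ± 0.19 (unadjusted p = 0.012, adjusted p = 0.9998), and Hsp90aa1 was lower in every knockout SB array, by 0.15 ± 0.07 on average. With Dnajb1, 2 of 9 lead probe sets were lower in every knockout SB array and 0 higher, against 2.31% and 4.3% of all genes. Some other probe sets, outside this count, were also lower in every knockout SB array. They were 1423566_a_at of Hsph1 (-0.85 ± 0.26, limma unadjusted p = 0.00783) and 1437497_a_at of Hsp90aa1 (-0.40 ± 0.14, 0.0175). The others were 1422579_at of Hspe1 (-0.33 ± 0.12, 0.0203), 1420623_x_at of Hspa8 (-0.14 ± 0.08, 0.102) and the second of Dnajb1. None was called over all probe sets, and the remaining ones of the members overlapped. Hspa1b differed by -0.64 ± 0.58, and by 0.08 without both arrays that stood apart, and Hspa1a by -0.89 ± 0.66 and -0.28. Under VILI none of the 9 passed either, where 0.106% of all genes did. Hspa1b was 0.62 ± 0.58 higher and Hspa1a 0.29 ± 0.66 higher in knockout VILI, with all 3 knockout arrays of each above all 3 wild-type arrays. Hspb1 went the other way, at -0.14 ± 0.19 and lower in every knockout array. Over all genes 11.1% were higher and 9.33% lower in every knockout VILI array. Each SE here is pooled over the 4 groups, so for the HSP70 pair it carries the wider spread of the SB arrays. For Hspa1a the SD was 1.16 in wild-type SB and 1.42 in knockout SB. Under VILI it was 0.0083 in wild type and 0.053 in knockout.

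Wild-type SB replicate 1, the highest for Hspa1a at 12.40, had a mean of 12.51 over 11 immediate early genes, which cells switch on within minutes of a stimulus. That mean was 10.57 to 11.51 in the remaining 5 SB arrays, and it was 11.40 to 12.26 after ventilation. Fos read 14.35 and Egr1 14.04 in that array. Knockout SB replicate 2, the lowest SB array for Hspa1a, had the lowest immediate early mean, 10.57. Among the immediate early genes 2 of 11 rose in the mean response and 0 fell, against 14.1% and 22.6% of all genes. The part of the immediate early genes in the chaperone values was not tested.

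Markers of some cell types moved with ventilation too. Over all genes 14.1% rose and 22.6% fell in the mean response, and the counts below stand beside these shares. Of 12 neutrophil genes tested, 10 rose in the mean response, 5 in wild type and 10 in knockout, and 0 passed for the difference of responses. Their mean level was 6.65 to 8.89 in wild-type SB and 8.90 to 9.93 in wild-type VILI. In knockout it was 5.89 to 6.64 under SB and 9.09 to 10.36 under VILI. The 8.89 was that of wild-type SB replicate 3, an array that stood apart, and replicates 1 and 2 read 6.65 and 7.04. Of 9 ciliated cell genes 8 fell, with mean levels of 9.22 to 9.57 in the SB arrays and 8.29 to 8.71 in the VILI arrays. Endothelial genes had 1 of 9 higher and 3 lower, at 12.44 to 12.66 under SB and 12.10 to 12.29 under VILI. Circadian clock genes had 2 of 14 higher and 8 lower, at 9.96 to 10.39 and 9.87 to 10.22, with the clock output Dbp at 11.92 to 13.25 in the SB arrays and 8.60 to 10.57 in the VILI arrays. Lung epithelium had 1 of 8 higher. Alveolar macrophage markers had 1 of 7 higher and 1 lower, lymphocyte markers 2 of 7 higher, cardiac muscle 1 of 9 lower, skeletal muscle 1 of 5 higher and erythroid markers 0 of 2 in either direction. The lowest deposited value was 0.75 on the log2 scale, so a list level above 0 does not show that a cell type was present. The part of these lists in the fall of the chaperone genes was not tested.

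Beyond the members, the chaperone network held both falls and rises. Of 88 further chaperone genes 75 were tested, of which 12 (16%) rose and 22 (29.3%) fell in the mean response, against 14.1% and 22.6% of all genes. Without both SB arrays that stood apart, a setting chosen for these genes after seeing the data, 11 rose and 17 fell. Their median was -0.04, and that of all genes -0.052. The lists differed in their counts, and the genes named from each are those with the lowest p.

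**Figure D4:**
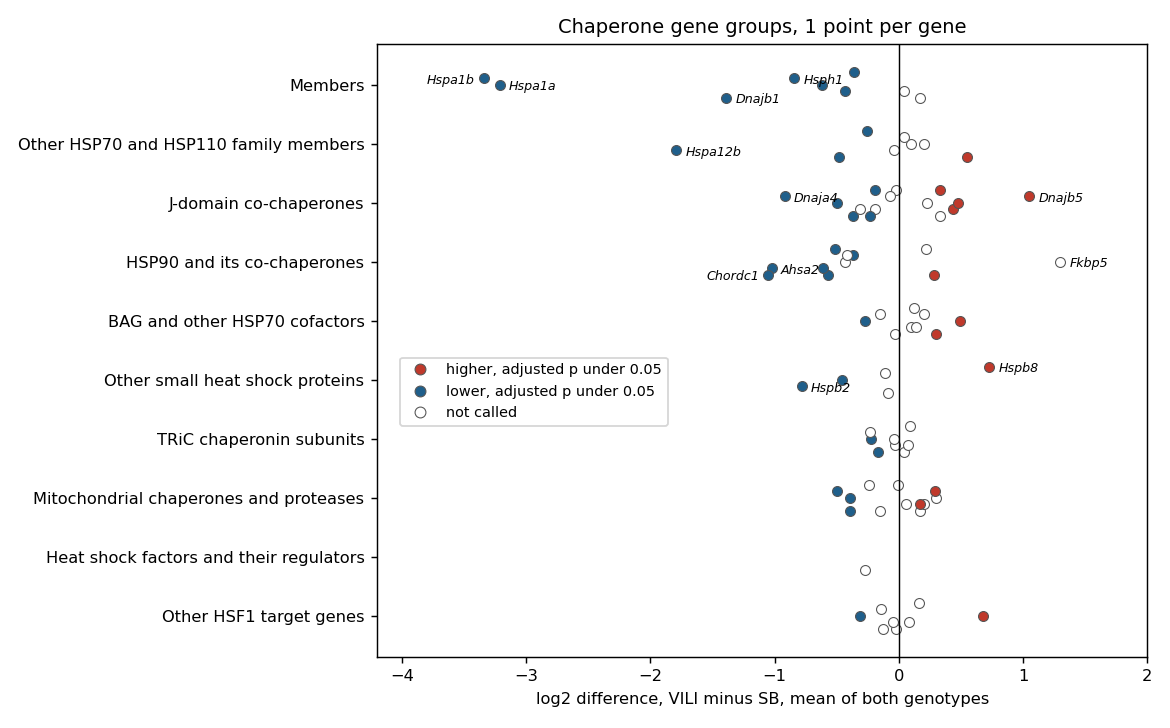
Log2 difference, VILI minus SB as the mean of both genotypes (x axis), for members and further chaperone genes by list, 1 point per gene. Filled points passed an adjusted p of 0.05 (red higher, blue lower); Hspa12b lies at -1.79 and Dnajb5 at 1.05.

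Co-chaperones of HSP90 had the largest share of falls, with 6 of 11 lower and 1 higher and a median of -0.43. Chordc1, which encodes the zinc-binding HSP90 partner CHP-1, fell by 1.05 ± 0.23 (adjusted p = 0.00642, 12 arrays). Its values were 10.16 to 11.70 in wild-type SB, 9.72 to 9.99 in wild-type VILI, 10.69 to 11.42 in knockout SB and 9.91 to 10.34 in knockout VILI. Only wild-type SB replicate 2, at 10.16, lay within the range of the VILI arrays. Ahsa1, the activator of the HSP90 ATPase, fell by 0.57 ± 0.10 and was lower in every VILI array. Sugt1, which joins HSP90 to receptor clients, fell by 0.51 ± 0.11, and Cdc37, which brings kinases to HSP90, by 0.37 ± 0.08.

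J-domain co-chaperones went both ways, with 4 of 15 higher and 5 lower. Dnaja4 fell by 0.92 ± 0.13 (adjusted p = 0.000521). It read 10.66 to 11.46 over the SB arrays and 9.94 to 10.39 over the VILI arrays. Dnajb5 rose by 1.05 ± 0.08 (adjusted p = 2.02e-05). It read 8.57 to 9.27 under SB and 9.91 to 10.14 under VILI, with no overlap. Dnaja3, the mitochondrial J-domain protein, fell by 0.50 ± 0.11, and Dnaja1, a cytosolic partner of HSC70, by 0.37 ± 0.09. Thus Dnajb1 and Dnajb5, of the same subfamily, had opposite directions.

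Other HSP70 and HSP110 family genes had 1 of 8 higher and 3 lower. Hspa12b, an atypical HSP70 relative of endothelial cells, fell by 1.79 ± 0.17 (adjusted p = 7.34e-05). It read 9.34 to 10.18 over the SB arrays and 7.57 to 8.23 over the VILI arrays, beside the endothelial markers given above. Hspa4, a member of the HSP110 group, rose by 0.55 ± 0.12 in its lead probe set but gave -0.33 as the median over its probe sets, so its direction is uncertain. Hspa12a and Hspa2 fell by 0.48 ± 0.15 and 0.26 ± 0.08; when single arrays were dropped, 4 of 12 fits no longer called Hspa12a and 6 no longer called Hspa2.

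The remaining lists held smaller changes. Among BAG proteins and other HSP70 cofactors 2 of 9 rose and 1 fell: Bag3, the autophagy co-chaperone, rose by 0.49 ± 0.10 and was higher in every VILI array, Bag6 rose by 0.30 ± 0.09, and St13, the HSC70-interacting protein, fell by 0.27 ± 0.05. Of other small heat shock proteins 1 of 5 rose and 2 fell. Hspb8, a partner of Bag3, rose by 0.73 ± 0.20, and read 9.75 to 10.89 over the SB arrays and 10.94 to 11.36 over the VILI arrays. Its lowest SB values, 9.83 and 9.75, were those of the 2 arrays that stood apart, and without them its difference was 0.42, still past the test. The muscle-type genes Hspb2 and Hspb6 fell by 0.78 ± 0.23 and 0.46 ± 0.14, while Cryab, at -0.09, did not pass. TRiC chaperonin subunits, the cytosolic folding chamber, had 2 of 8 lower and 0 higher, Cct4 by 0.22 ± 0.07 and Cct7 by 0.17 ± 0.06.

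Mitochondrial chaperones and proteases other than the members had 2 of 12 higher and 3 lower. Lists can share a gene: Dnaja3, named above among the J-domain co-chaperones, is also 1 of these 3. Grpel2, an exchange factor of mitochondrial HSP70, fell by 0.39 ± 0.06 and was lower in every VILI array, as Hspd1 and Hspe1 were. The protease genes Htra2 and Lonp1 differed by -0.39 ± 0.11 and 0.29 ± 0.08, both past the test. Of the heat shock factors and their regulators 1 of 5 was tested, Hsbp1, an inhibitor of HSF1, at -0.27 without a call. Of 8 other HSF1 target genes 1 rose and 1 fell: Mrpl18 fell by 0.31 ± 0.06 and Tnfaip3, an inhibitor of NF-kB signalling, rose by 0.68 ± 0.24. When single arrays were dropped, the call was absent in 6 of 12 fits for Bag6, 2 for Hspb2, 7 for Hspb6, 8 for Cct4, 9 for Cct7, 2 for Htra2 and 9 for Tnfaip3. Without both SB arrays that stood apart, Hspb2 gave -0.45 and kept its call. The calls of Bag6 (0.19), Hspb6 (-0.47), Hspa2 (-0.21), Cct4 (-0.16), Cct7 (-0.14) and Htra2 (-0.27) ended in that setting.

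Profiles over the 12 arrays were compared as a description, with points that share the division into SB and VILI. Among members, Hspa1b followed Hspa1a with a Pearson r of 0.978, Hspd1 with 0.92, Dnajb1 with 0.878 and Hspe1 with 0.877. Its r was 0.686 with Hsph1, -0.035 with Hspb1 and -0.233 with Hsp90aa1. The genes outside the set nearest to Hspa1b were Smad6 (0.952), Zfp319 (0.951), Ecpas (0.95), Cep83os (0.944) and Ccp110 (0.942). Those nearest to Hspa8 were Kmt2e (0.952), Rprd2 (0.95), Rhebl1 (0.942), Serac1 (0.941) and Cep44 (0.937). For Hspd1 they were Anapc1 (0.946), Acox2 (0.937), Chd4 (0.931), Idh2 (0.93) and Klhl42 (0.929).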

How the data were processed

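Total RNA from whole mouse lung was hybridised to Affymetrix arrays, 1 per sample. The authors deposited log2 values per probe set for 12 arrays. MAS5 and GCRMA are named per the submitters' processing notes, with no version, and which step used which was not given in the sources used here. Symbols came from the platform annotation: 34945 probe sets had 1 symbol, 932 several and 9160 none. Array medians ran from 4.94 to 5.04, and no further normalization or pseudocount was applied. Precision is limited by having 3 arrays in each group, and p-values measure the spread between these samples, pooled over the 4 groups.

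Probe sets with a mean under the 40th percentile (3.06) were left out, and the brightest probe set of each gene was tested. Group means over all 12 arrays were fitted with limma 3.58.1 in R 4.3.3 for 6 comparisons, with Benjamini-Hochberg adjustment over 12309 genes and a threshold of 0.05. The fit was tested on simulated data. Named genes were the members, Mylk, up to 4 genes per chaperone list with the smallest p for the mean response, and the 5 nearest genes by correlation for 3 members. Fos, Egr1 and Dbp, and Dnajb6 for its element, fall outside this rule and were named after their values were seen. The members and lists were chosen with earlier results of these data known. Alternatives were other filters, all probe sets or their median, other array scalings, limma-trend, the replicate number as a block, fewer groups and fewer arrays. Promoter windows came from RefSeq (GRCm38.p6).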

Additional observations from a re-analysis of the deposited data

How the results depend on the processing

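With 3 arrays per group, the median SE of a genotype's response was 0.148 on the log2 scale. The mean response kept 7 members called in all 12 fits that each left out 1 array, and the wild-type count ran from 5 to 7. The knockout count ran from 2 to 6, with 2 (Hspa1b and Hspe1) without knockout SB replicate 1 or 3 or any 1 of the knockout VILI arrays. Over all genes these fits gave 933 to 2052 calls in wild type, 1232 to 3301 in knockout, 0 to 6 for the difference of responses, 0 to 16 between genotypes under SB and 2 to 19 under VILI, where the full data gave 1892, 2554, 0, 6 and 13. Without both SB arrays that stood apart, 11 genes were called for the difference, 19 under SB and 28 under VILI, and in wild type 2204, with 5 members called in wild type (Hspa8 and Hsph1 lost) and 6 in knockout (Hsph1 gained). With no filter, the difference gave 1 gene and the VILI comparison 6. With a filter at 5 the SB comparison gave 11. With every probe set past the filter tested, the mean response gave 7191 of 22443 probe sets, where the main fit gave 4520 of 12309 genes. Fitting only the groups compared gave 845 in wild type and 0 under SB. Members called in wild type and in knockout were 5 and 5 in that fit, 6 and 5 after quantile normalization and 6 and 4 with no filter. They were 7 and 6 with limma-trend or the median over probe sets, and 7 and 5 with the filter at 5.

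Replicate numbers gave no clear sign of pairing: 3 of 18 same-numbered pairs had deviations correlated over 0.1 (range -0.63 to 0.40), and 5 of 18 correlated best with their own number. The 2 SB arrays that stood apart, which differ in number, correlated at 0.71. With 3 arrays per group these values cannot show that pairing was absent. With the replicate number as a block, 6 members were called in wild type, 4 in knockout and 7 in the mean response; over all genes there were 1433, 1884 and 3936 calls, and 0 under SB and 2 under VILI.

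Apart from Hspa4, the directions that turned belonged to differences that had not passed the test. With the median over probe sets, the mean response of Hspa4 was -0.33, Hspa8 was -0.09 between genotypes under SB and -0.02 under VILI, and under VILI Hsp90aa1 was 0.07 and Hspe1 -0.02. In that setting 6 of the named further chaperone genes lost their call for the mean response, 1 gained one and 24 kept their result. Which genes these 6 were is not given here, so other probe sets did not uphold every lead result. In wild type, Hspb1 was 0.01 and Hsp90aa1 0.04 with array medians equal, and Hsp90aa1 was 0.02 after quantile normalization. Without both SB arrays, Hsp90aa1 in wild type was 0.00, the mean response of Hspb1 -0.02 and of Cryab 0.02, the difference of responses of Hsph1 -0.07 and the SB comparison of Hspa1b 0.08. Leaving out 1 array moved the wild-type response of Hspb1 from -0.23 to 0.08 and of Hsp90aa1 from -0.03 to 0.03, the difference of responses of Hsph1 from -0.09 to 0.53, the SB comparison of Hspa8 from -0.02 to 0.04 and of Hspa1b from -1.11 to 0.22, and the VILI comparison of Hspe1 from -0.07 to 0.08. Single omissions did not turn the mean response of Hspb1 (0.08 to 0.25) or of Cryab (-0.14 to -0.03). The causes were not tested. Requiring 3 units in place of 2 lowered the members with a heat shock element from 6 to 3.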
